A study of Mus musculus with 9 samples.

Results

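The blood-retina barrier transporters described here are 10 genes whose products carry nutrients, hormones and drugs across retinal endothelial cells. They were chosen by name, as all probe sets (groups of oligonucleotides that report 1 transcript) annotated with exactly 1 gene symbol on the list. The list was drawn up with earlier results of these data known. All 10 of the 10 genes were represented, among 15964 genes in all, by 15 of 36701 probe sets. The Affymetrix MG-U74v2 series comes as designs A, B and C with different probe sets, which held 7, 3 and 5 of the 15. Each design was hybridised in 3 replicates, so 9 arrays were used. The RNA came from GFP-positive cells sorted out of the retinas of homozygous Tie2-GFP transgenic mouse pups at postnatal day 8, after intraperitoneal APB5 from day 0 to day 7. APB5 is a neutralizing antibody against PDGFRb, the receptor through which pericytes are recruited to vessels. The Tie2 promoter drives GFP in endothelial cells and is also active in some blood cells, and retinas were pooled before the sort. All arrays share this 1 condition, so these values describe how high each transporter read and how far the arrays differed, not what the antibody did. Separate pools of animals are not stated for the replicates, so the spread between arrays may be technical.

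Endothelial cells of the retina are joined by tight junctions, so that glucose, amino acids and fatty acids have to enter the tissue through membrane carriers, while ATP-driven pumps return drugs and other lipophilic compounds to the blood. Pericytes, the mural cells of capillaries, are known in brain and retina to help establish this state in the endothelium. Slc2a1, Mfsd2a, Slc7a5 and Slco1c1 are widely used as markers of barrier endothelium in the mouse.

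Most of the 15 probe sets read high, 2 genes (Abcg2 and Slco1c1) had probe sets on both sides of the signal floor used here, and 1 gene read low. A probe set counted as above the floor when it exceeded the 40th percentile of its array on all 3 arrays of its design. That was so for 11 of 15 member probe sets, beside 56.5% of all probe sets. By design the counts were 6 of 7 on A (56.6% of all probe sets), 2 of 3 on B (56.4%) and 3 of 5 on C (56.4%). The floor was passed by at least 1 probe set of 9 of the 10 genes, beside 72.4% of all 15964 genes. The position of a probe set is its percentile among all probe sets of the array, from 0 to 100, averaged over the 3 arrays. The median position was 89.3 over the member probe sets and 50.02 over all probe sets. Slc16a1, a monocarboxylate carrier, was the gene with no probe set above the floor. Another floor, the 90th percentile of probe sets for genes of unrelated tissues, was passed by 8 of 15 member probe sets, beside 34.3% of all probe sets. At least 1 probe set passed it for 8 of 10 member genes, beside 51.8% of all genes. A percentile floor fixes roughly what share of an array lies above it, and probe sets differ in how well they hybridise, so a position ranks signals and not transcript amounts.

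**Figure D1:**
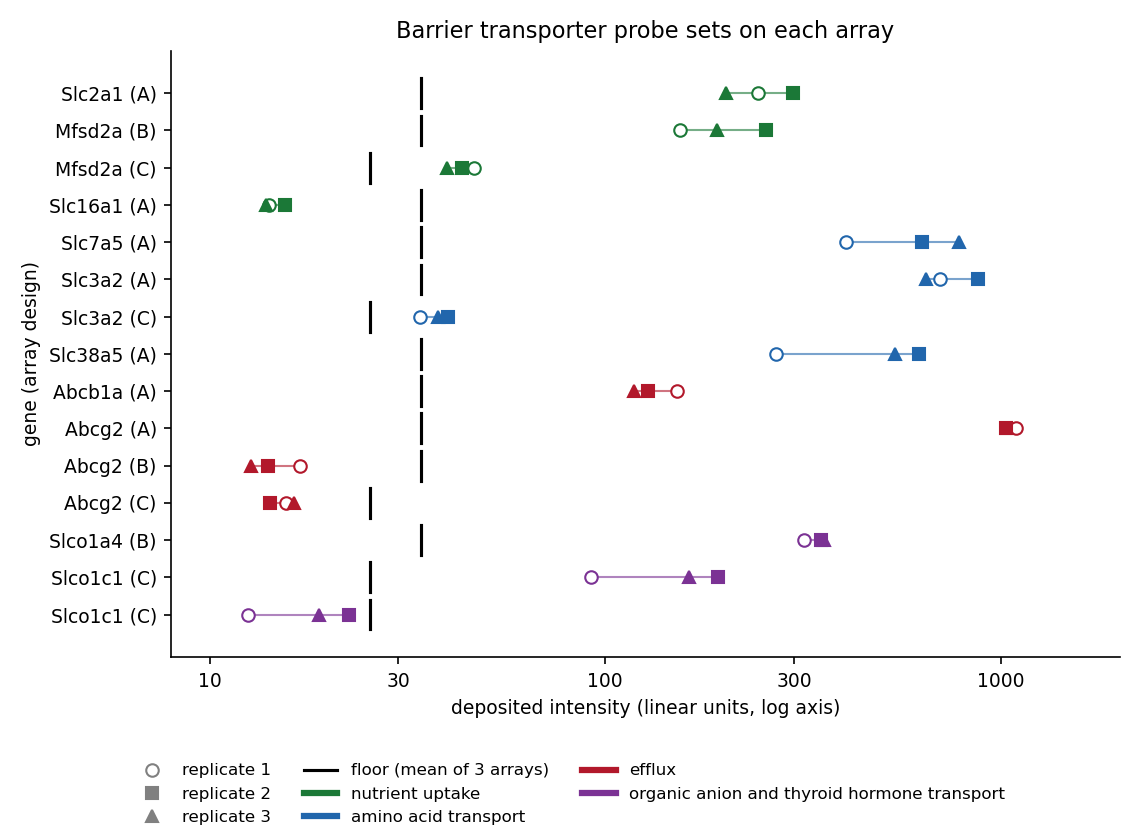
Deposited intensity (linear units on a log axis) of the 15 barrier transporter probe sets, 1 row each, with the array design in brackets. Circles, squares and triangles are replicates 1, 2 and 3, the horizontal line joins the lowest and the highest array, and the black tick is the floor of that design. The 4 probe sets left of their tick are Slc16a1, Abcg2 on designs B and C, and 1 of the 2 for Slco1c1.

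Among the carriers of energy substrates and lipids, Slc2a1 and Mfsd2a were high and Slc16a1 was low. Slc2a1, the glucose transporter GLUT1, read 244, 298 and 203 intensity units in replicates 1, 2 and 3 on design A. All arrays were far above the design A floor of 33.5, 34.2 and 34.9, and the mean position was 89.4 ± 1.55 (SD, n = 3). Mfsd2a, which carries lysophospholipids that contain docosahexaenoic acid and restrains vesicle transport across barrier endothelium, read 155, 256 and 192 on design B. On design C another Mfsd2a probe set read 46.7, 43.6 and 39.7. Both lay above their floors on all arrays, at positions 89.8 ± 3.81 and 61.02 ± 2.75 (SD, n = 3 each). Replicate 2 was the highest of the Mfsd2a arrays on design B, and replicate 1 on design C. Slc16a1, which encodes the lactate and ketone body carrier MCT1, read 14.1, 15.5 and 13.9 on design A. Its position was 11.7 ± 1.41 (SD, n = 3), and the 3 arrays lay between 0.397 and 0.454 times their floors. It was measured by 1 probe set, so a low reading of the probes and a low transcript cannot be told apart.

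The amino acid carriers read high on design A. Slc7a5 encodes LAT1, the light chain that exchanges large neutral amino acids and also carries thyroid hormone and L-DOPA, and Slc3a2 encodes 4F2hc, the heavy chain that brings LAT1 to the membrane. Slc7a5 read 406, 631 and 784 in replicates 1, 2 and 3, at position 96.02 ± 1.88. Slc3a2 read 703, 876 and 649, at position 97.2 ± 0.389 (SD, n = 3 each). The order of the arrays thus differed between these partners, with replicate 1 lowest for Slc7a5 and replicate 3 lowest for Slc3a2. A second Slc3a2 probe set, on design C, read 34.03, 40.02 and 37.7 against floors of 25.3, 25.4 and 25.4. It was above the floor on every array but close to it, at position 55.3 ± 3.32. Slc38a5, a sodium-coupled glutamine and histidine transporter that is enriched in veins of the mouse retina, read 270, 620 and 539 on design A. Its position was 94.3 ± 3.45 (SD, n = 3), and replicate 1 stood apart below the other 2 arrays, which lay close together.

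Both efflux pumps read above the floor on design A, and Abcg2 had the widest disagreement between probe sets of any member. Abcb1a, which encodes the main P-glycoprotein of the mouse barrier, read 152, 128 and 118 on design A, at position 80.5 ± 2.11 (SD, n = 3). All 3 arrays were between 3.39 and 4.52 times their floors. In the RefSeq table for GRCm38.p6, Abcb1a is next to its close copy Abcb1b with no protein-coding gene between them. The Abcb1b probe set read 32.8, 23.6 and 27.6 on the same arrays, below the floor on each. How far the probes of these copies share target sequence was not tested. Abcg2, which encodes the breast cancer resistance protein, read 1094, 1032 and 1034 on design A, the highest of the member probe sets on that design, at position 98.3 ± 0.151. The design B probe set for Abcg2 read 16.9, 14.0 and 12.7, and the design C one read 15.6, 14.2 and 16.3. Both were below the floor on every array, at positions 12.5 ± 3.61 and 21.9 ± 1.87 (SD, n = 3 each). The gap between the highest and the lowest Abcg2 probe set was 85.8 percentile points, far beyond the spread between arrays. Per its accession prefix in the platform annotation, the design B probe set was made from an expressed sequence tag, the design A one from another kind of nucleotide record, and none is listed for the design C one. Whether this bears on the gap was not tested.

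The organic anion transporters carry conjugated steroids, drugs and thyroid hormone. Slco1a4 read 318, 350 and 357 on design B, at position 95.9 ± 0.734 (SD, n = 3), and its arrays were among the closest of all members (highest over lowest 1.12). Slco1c1, the thyroxine carrier of brain capillaries, had both of its probe sets on design C. The stronger read 92.1, 193 and 163 in replicates 1, 2 and 3, at position 89.3 ± 6.16. The weaker read 12.5, 22.5 and 18.9, at position 26.8 ± 9.56 (SD, n = 3 each). The stronger was above the floor on every array and the weaker on none, a gap of 62.5 percentile points. Both nonetheless ordered the arrays alike, with replicate 2 highest and replicate 1 lowest. In the RefSeq table, Slco1a4 and Slco1c1 are near neighbours, with 2 protein-coding genes, Slco1b2 and Gm5724, between them.

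The order of positions was partly resolved by the arrays. On design A the order ran Abcg2, Slc3a2, Slc7a5, Slc38a5, Slc2a1, Abcb1a and Slc16a1. The ranges of Slc3a2 and Slc7a5, of Slc7a5 and Slc38a5, and of Slc38a5 and Slc2a1 overlapped. Read array by array, Slc7a5 was nonetheless above Slc38a5, and Slc38a5 above Slc2a1, on each of the arrays. Slc3a2 was above Slc7a5 in replicates 1 and 2 and below it in replicate 3. The ranges of Abcg2 and Slc3a2, of Slc2a1 and Abcb1a, and of Abcb1a and Slc16a1 did not overlap. On design B, Slco1a4, Mfsd2a and Abcg2 were separate from each other. On design C the stronger Slco1c1 probe set stood alone at the top, Mfsd2a overlapped Slc3a2, and the weaker Slco1c1 probe set overlapped Abcg2. Mfsd2a was above Slc3a2 on each array. The weaker Slco1c1 probe set was below Abcg2 in replicate 1 and above it in replicates 2 and 3. This is an order of probe set signals within a design, not of transcript levels.

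Set beside other transporters of the same arrays, most members stood near the top. Probe sets of genes whose symbols begin with Slc, Slco, Abc or Mfsd numbered 660, for 382 genes. This symbol rule also took in genes such as Slc7a6os and Slc2a4rg-ps, whose names mark an opposite-strand gene or a pseudogene. The 15 member probe sets had a median position of 89.3, the other 645 had one of 49.3, and 55.5% of the others were above the floor. Among 222 such probe sets on design A, Abcg2 ranked 3, Slc3a2 ranked 6, Slc7a5 ranked 8, Slc38a5 ranked 11 and Slc2a1 ranked 26 by position. Abcb1a ranked 48 and Slc16a1 ranked 198. Among 274 on design B, Slco1a4 ranked 15, Mfsd2a ranked 29 and Abcg2 ranked 230. Among 164 on design C, the Slco1c1 probe sets ranked 20 and 127, Mfsd2a ranked 68, Slc3a2 ranked 82 and Abcg2 ranked 134. Design C was thus the design on which the members were least set apart. The member median there was 55.3, from 5 probe sets, and the median of the 159 other transporter probe sets was 55.2.

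**Figure D2:**
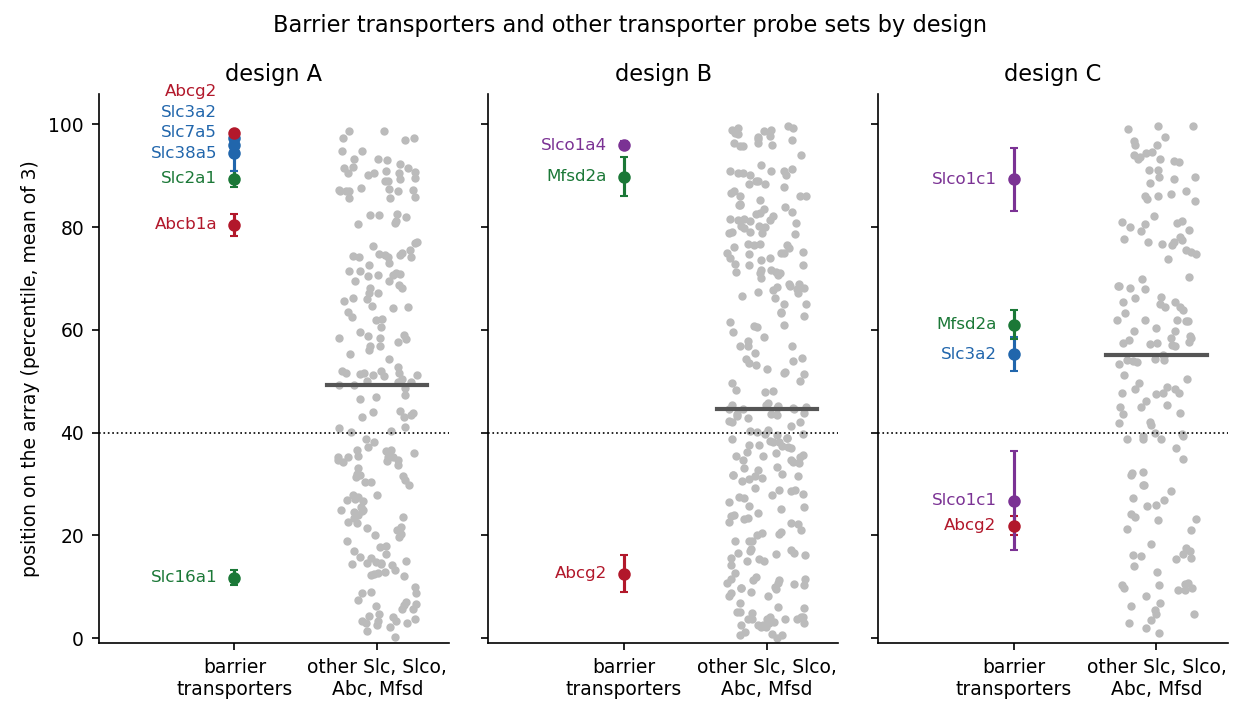
Position on the array (percentile, mean of 3 replicates) of the barrier transporter probe sets (left, coloured by role as in the intensity plot, bars are SD over 3 arrays) and of other transporter probe sets (right, grey, with their median as a bar) on designs A, B and C. The dotted line is the floor at the 40th percentile. On design A, 6 of 7 members lie above 80, and on design C the members spread from 21.9 to 89.3.

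Rank within a family depended on how the probe sets of a gene were combined. Families were taken from the start of the gene symbol. This rule also counted Slc2a4rg-ps, Slc7a6os and Mfsd4b3-ps, whose names mark a pseudogene or an opposite-strand gene. None of these had the highest position in its family. By the mean over all probe sets of a gene 6 of 10 members had the highest position in their family, and by the strongest probe set of each gene 4 did, a measure added after the data were seen. Slco1a4 and Slco1c1 share the Slco family, so not all 10 could lead. Slc3a2, Slco1a4 and Abcb1a ranked 1 by both measures. By the mean, Slc3a2 was ahead of the kidney and gut heavy chain gene Slc3a1 at 55.6 (2 Slc3a genes), Slco1a4 was ahead of Slco5a1 at 82.3 (11 Slco genes), and Abcb1a was ahead of the mitochondrial Abcb8 at 69.6 (8 Abcb genes). By the strongest probe set, the highest relatives were Slc3a1 at 76.3, Slco2b1 at 92.2 and Abcb8 at 69.6. Slc2a1, Slc7a5 and Slc38a5 ranked 1 by the mean only. Of 12 Slc2a genes, Slc2a1 at 89.4 was ahead of Slc2a10, another facilitative sugar transporter, at 81.6 by the mean. A design C probe set of the fructose transporter gene Slc2a5 stood at 89.8, against 89.4 for Slc2a1. Of 14 Slc7a genes, Slc7a5 was ahead of Slc7a7, the light chain of a cationic amino acid exchanger, at 86.97 by the mean. A design B probe set of the cationic amino acid transporter gene Slc7a1 read 381, 392 and 420, at position 96.9, against 96.02 for Slc7a5. Of 9 Slc38a genes, Slc38a5 was ahead of the glutamine transporter gene Slc38a1 at 79.1 by the mean. The neutral amino acid transporter gene Slc38a2 had a mean of 51.6 over its 7 probe sets, but its design C probe set read 1070, 1671 and 1394, at position 99.7, above the 94.3 of Slc38a5.

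Abcg2 ranked 5 of 6 Abcg genes as a mean of its 3 probe sets, with the sterol transporter gene Abcg8 at 93.97 and Abcg1, an endothelial and macrophage sterol exporter, at 85.9. Abcg8 was measured by 1 design C probe set, marked by its name as made under relaxed design rules. By its strongest probe set, at 98.3, Abcg2 ranked 1. Mfsd2a ranked 3 of 18 Mfsd genes by the mean, with Mfsd10 highest at 89.7, and 2 by the strongest probe set, with Mfsd10 at 93.2. Slco1c1 ranked 6 of 11 by the mean and 3 by the strongest probe set. Slc16a1 was low by both, ranking 9 of 11 Slc16a genes with Slc16a13 highest at 86.4 by the mean, and 10 with Slc16a9 highest at 88.5 by the strongest probe set. These genes sit on different probe sets and often on different designs, so the ranks describe signals only. Abcg1, Slc2a5, Slc7a1, Slc38a2, Slco2b1 and Slc16a9 were named after their values were seen.

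Further genes known from barrier endothelium were read from a list of 39 transporters and transport receptors, of which 36 were measured. This list too was chosen with earlier results of these data known. At least 1 probe set was above the floor for 33 of 36, beside 72.4% of all genes. The median gene position was 78.4 for the 10 members, 63.8 for this list and 52.1 for all genes. The highest were the iron exporter gene Slc40a1 at position 99.2, which read 706, 868 and 891 on design B, and the lipoprotein and reelin receptor gene Lrp8 at 98.1. The sodium, potassium and chloride cotransporter gene Slc12a2 followed at 97.3, the efflux pump gene Abcc4 at 95.9 and the neutral amino acid transporter gene Slc1a4 at 92.3. The lowest were the fatty acid translocase gene Cd36 at 8.70, the bicarbonate cotransporter gene Slc4a4 at 14.4 and the cationic amino acid transporter gene Slc7a3 at 31.7. No probe set of Cd36 or Slc4a4 was above the floor, and 1 of 4 for Slc7a3 was. Plvap, the diaphragm protein of fenestrated and leaky vessels, read 226, 163 and 175 with 1 design B probe set (position 89.1), while 2 others stood at 59.6 and 4.56. The 6 vesicle and fenestra genes, including Plvap, had a median gene position of 75.6, and all were above the floor. Plvap was named after its values were seen.

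Marker lists of cell types were read to describe the sorted cells. They were chosen with earlier results of these data known, so they are no independent check of the sort. Of 15 endothelial markers, 14 were measured and all were above the floor, beside 72.4% of all genes. Their median gene position was 91.9, led by the claudin gene Cldn5 and the cadherin gene Cdh5. Positions ran from 30.5 for Egfl7 to 99.2 for Cldn5, and Pecam1 stood at 52.4, near the median of all genes (52.1). Egfl7 and Pecam1 were named after their values were seen. Medians were 40.2 for 14 mural genes (led by Kcnj8 and Tagln), 43.1 for 10 pigment epithelium genes (Pmel and Rdh5), 39.5 for 11 photoreceptor genes (Crx and Sag) and 34.8 for 13 inner neuron genes (Calb2 and Slc6a9). They were 35.9 for 13 Muller glia and astrocyte genes (Vim and Apoe), 35.1 for 13 microglia and macrophage genes (Laptm5 and Fcgr3), 63.7 for 9 erythroid and platelet genes (Hba-a1 and Itga2b) and 35.8 for 38 genes of unrelated tissues. Above the floor were 9 of 14 mural, 6 of 10 pigment epithelium, 6 of 11 photoreceptor and 8 of 13 inner neuron genes. The counts were 8 of 13 for glia, 7 of 13 for microglia, 6 of 9 for erythroid and platelet genes and 21 of 38 for genes of unrelated tissues. Slc2a1 is also abundant in erythroid cells and pigment epithelium, Abcg2 in some blood cells and Slc16a1 in pigment epithelium. The part of such cells in the member signals was not tested. In sorted cells measured in bulk, fewer cells of a type and less RNA per cell cannot be told apart.

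**Figure D3:**
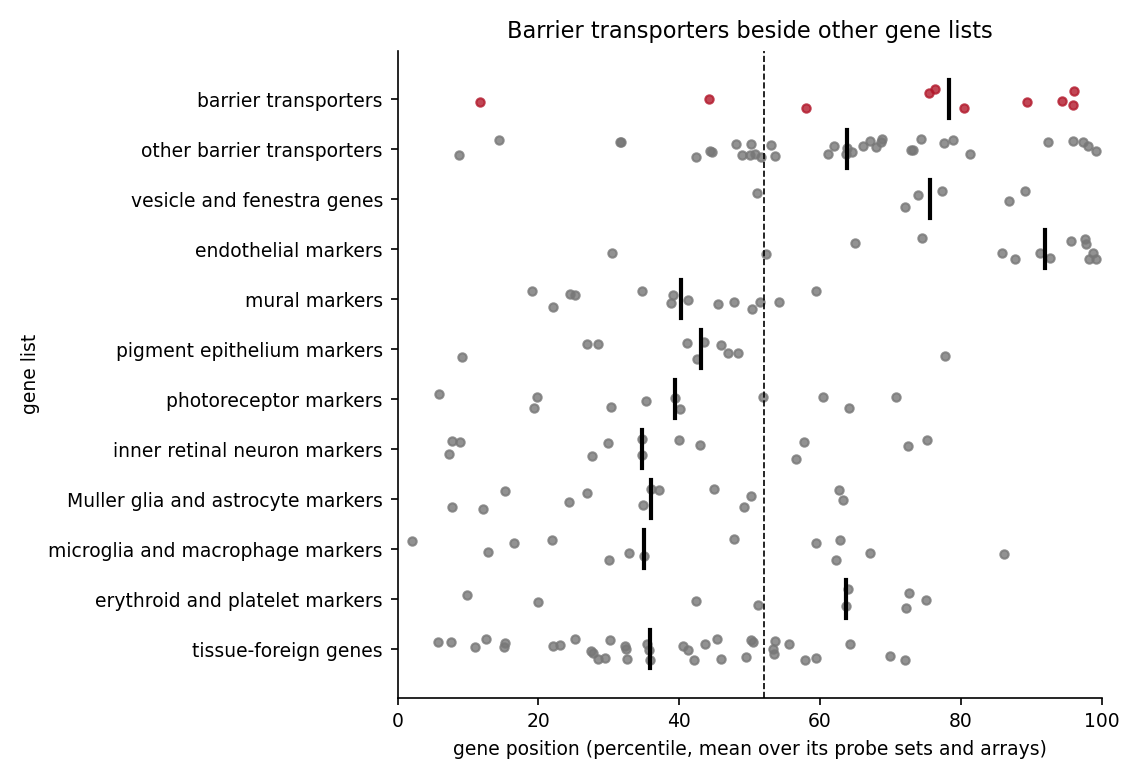
Gene position (percentile, mean over the probe sets and arrays of a gene) for the 10 barrier transporters (top, red) and other gene lists (grey), 1 point per gene, with the list median as a black bar and the median of all genes as a dashed line. The barrier transporters spread from 11.7 to 96.02, with a median of 78.4 that lies between those of endothelial markers (91.9) and other barrier transporters (63.8).

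Several members varied widely between arrays. The highest array was at least 1.5 times the lowest for 5 of 15 member probe sets, beside 9.41% of all probe sets, and for 4 of 11 member probe sets above the floor, beside 6.76% of all those above it. These were Slc38a5 (2.30 times), Slco1c1 (2.10 and 1.81 times), Slc7a5 (1.93 times) and Mfsd2a on design B (1.65 times). The median SD on the log2 scale was 0.21 over the member probe sets and 0.13 over all probe sets. At the other end, the 3 design A arrays of Abcg2 lay within 1.06 times of each other, and those of Slco1a4 and Slc16a1 within 1.12 times.

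In all 5 of these wide probe sets replicate 1 was the lowest array. After centring each array on its median, log2 of replicate 1 minus the mean of replicates 2 and 3 was -1.08 for Slc38a5, the lowest among 577 probe sets of design A whose mean signal was within 0.5 log2 units. It was -0.95 for the stronger Slco1c1 probe set, the lowest among 1016 such probe sets of design C. For the weaker it was -0.73, with 8 of 2732 lower. It was -0.77 for Slc7a5, with 2 of 426 lower, and -0.51 for Mfsd2a on design B, with 9 of 1214 lower. The other 10 member probe sets lay between -0.20 and 0.35. The difference was 0.01 for Slc2a1, 0.10 for Abcg2 on design A, 0.32 for Abcb1a, -0.08 for Slc3a2 on design A, -0.15 for Slco1a4 and 0.16 for Mfsd2a on design C. The choice of replicate 1 was made after its values were seen, and no test was made of it. Arrays of equal number on different designs are not stated to share RNA. Across genes above the floor on a pair of designs, the deviations of replicate 1 from the mean correlated at 0.137 between A and B, 0.132 between A and C and 0.148 between B and C. Each of these was above the highest of the 18 pairs of unequal number (0.0651). So were those of replicates 3 (0.0838 to 0.0990), but those of replicates 2 (0.0027, 0.0156 and 0.0403) were not. Deviations from the mean cancel within a design, so pairs of unequal number are not independent of pairs of equal number. Genes are not independent replicates, and no test was made.

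**Figure D4:**
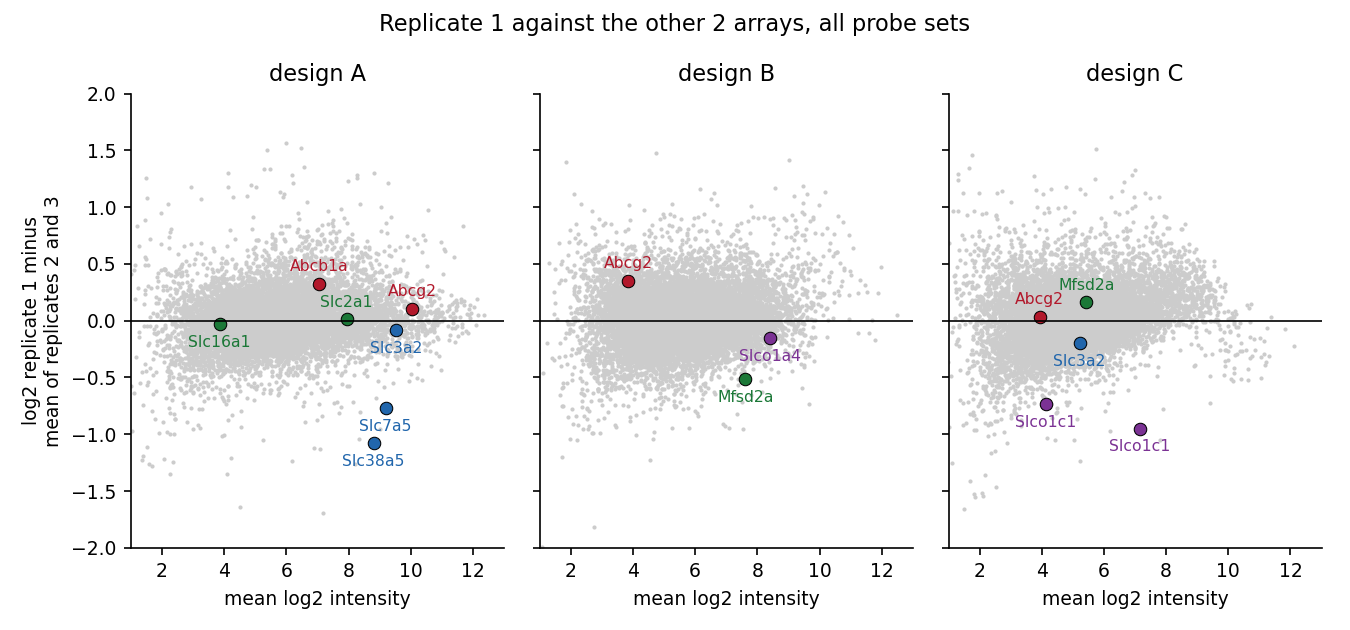
Log2 intensity of replicate 1 minus the mean of replicates 2 and 3, after centring each array on its median, against mean log2 intensity for all probe sets (grey) and the barrier transporters (coloured by role as in the intensity plot), 1 panel per design. Slc38a5 and Slc7a5 on design A, Mfsd2a on design B and both Slco1c1 probe sets on design C lie at the lower edge of the cloud, while the other members lie within it. The axes leave out 64 probe sets, none of them a member.

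Replicate 1 was the lowest array for 6 of 11 member probe sets above the floor, beside 30.6% of all probe sets above it, and for 7 of 15 in all, beside 34.0% of all probe sets. Among the 49 probe sets above the floor of the other barrier transporters, 19 were lowest in replicate 1, and the median difference of the 49 was 0.01. Some were far lower in replicate 1. These included Slc29a1 on design A (-0.46, with 10 of 684 probe sets of like signal lower), Lrp8 (-0.39, 3 of 266) and Slc1a4 (-0.36, 16 of 742). Others were higher, such as a Slc19a3 probe set on design C (0.37). These genes were picked here after their values were seen. Over the 22 endothelial marker probe sets above the floor the median difference was 0.05, with markers on both sides of 0. Summed endothelial markers of design A were 12038, 13287 and 11453 in replicates 1, 2 and 3. The design B sums were 1722, 1652 and 1625, and those of design C were 2051, 2610 and 2375. Replicate 1 was thus the lowest on design C, where both Slco1c1 probe sets lie, the highest on design B and between the others on design A. Most of the design C sum came from 1 Flt1 probe set, which read 1978, 2542 and 2296. On design B, Flt1 was highest in replicate 1 (639, 499 and 544). On design A, 1 Flt1 probe set was highest in replicate 1 (429, 414 and 363) and another lowest (967, 1039 and 1131). Within that list Cdh5 (1032, 1576 and 1439 in replicates 1, 2 and 3) and Cldn5 (1339, 2095 and 1529) were lowest in replicate 1, at -0.52 and -0.40, while Kdr (1863, 1942 and 1349) was lowest in replicate 3.

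Some markers of other cells also differed between these arrays. The summed intensity of inner neuron markers on design A was 2477, 1539 and 1815 in replicates 1, 2 and 3. Most of that came from 1 probe set of the bipolar cell gene Pcp2, which read 1898, 1008 and 1289 and is marked by its name as made under relaxed design rules. The other Pcp2 probe set on the same arrays read 17.05, 16.18 and 15.31, below the floor on each. The difference in that sum thus rests mostly on a probe set that the other one does not bear out. The summed microglia and macrophage markers on design C were 614, 921 and 910, mostly the blood cell gene Laptm5 at 486, 810 and 787. That sum covers 4 probe sets, and on design A, where 18 were summed, it was 951, 943 and 1043, with replicate 1 between the others. Within the design A sum, Laptm5 probe sets read 83.7, 155.9 and 155.7, and 79.3, 184 and 168.4, lowest in replicate 1. A Csf1r probe set, also marked as made under relaxed rules, read 340.9, 126.0 and 242.2, highest in replicate 1. Of 12 microglia and macrophage probe sets above the floor on all designs, 6 were lowest in replicate 1, and 3 of these 6 were for Laptm5. Mural sums on design A were 448, 418 and 455. The part of endothelial and other cell markers in the low replicate 1 of Slc38a5, Slc7a5, Slco1c1 and Mfsd2a was not tested. Flt1, Kdr, Pcp2 and Csf1r were singled out after their values were seen. Without replicate 1 the positions were 96.3 for Slc38a5, 97.06 for Slc7a5, 91.6 for Mfsd2a on design B, and 92.8 and 31.9 for Slco1c1, and no member changed its side of the floor.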

How the data were processed

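Cells were profiled on 9 arrays, 3 per design. The authors deposited linear intensity values in 1 table per design. The summary of probe signals and the scaling, not given in the sources used here, can both shift levels. RNA was amplified before biotin labelling, per the labels' protocols, which can distort levels between transcripts. Array medians lay between 42.9 and 44.5 on designs A and B and between 32.3 and 32.9 on design C, and replicate arrays correlated with r between 0.981 and 0.987 over log2 intensity. No pair of arrays was identical. The number of arrays limits the precision.

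Names came from the platform annotation. Of 36701 probe sets, 29131 had 1 symbol, 724 several and 6846 none here, and an update through Entrez identifiers against RefSeq GRCm38.p6 changed no symbol. Positions were computed in Python 3.11.15 with pandas 2.3.3 and were tested on simulated data. For log2, exact zeros (7 values) were set to the lowest value above 0 on the array. Tables of the designs were not compared by intensity. All arrays share 1 condition, so no contrast was fitted and no p-value is given. Alternatives were other floors, probe set choices, positions among named probe sets, another log offset, quantile normalization and leaving out each replicate, and family ranks by the strongest probe set were added after the data were seen. All members, the 5 highest and 3 lowest other barrier transporters, the highest relative in each family and the 2 highest genes of each marker list were named. The members and lists were chosen with earlier results of these data known. Arrays of equal number on different designs are not stated to share RNA. Over genes above the floor on a pair of designs, deviations correlated at 0.132 to 0.148 for replicates 1, at 0.0027, 0.0156 and 0.0403 for replicates 2, at 0.0838 to 0.0990 for replicates 3 and at -0.149 to 0.0651 for unequal numbers.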

Additional observations from a re-analysis of the deposited data

How the results depend on the processing

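The count of member probe sets above the floor was 11 of 15 as reported, beside 56.5% of all probe sets. It was also 11 without any 1 replicate, with a floor at the 50th percentile, on at least 2 of 3 arrays and among named probe sets. The share of all probe sets under those alternatives is not given here. The member count was 8 with a floor at the 90th percentile of genes of unrelated tissues, beside 34.3% of all probe sets. The 3 lost were Mfsd2a and Slc3a2 on design C and the stronger Slco1c1 probe set. That floor rests on 46, 2 and 14 probe sets on designs A, B and C, and on design B it lay below the 40th percentile. Under it 8 of 10 member genes and 25 of 36 other barrier transporters passed, beside 51.8% of all genes. The median position of the member genes was 78.4 as reported, 92.06 when each gene took its strongest probe set, 77.5 among probe sets with 1 symbol, and 78.2 to 78.6 without 1 replicate. Taking the strongest probe set raises any gene with several, and the median of all genes on that measure is not given here. Members leading their family numbered 6 by the mean and 4 by the strongest probe set, a choice made after seeing the data, with 3 shared. The median of the member probe sets was 87.01 to 89.6 without 1 replicate. With 50 added before log2, the replicate SD of 6 of 15 member probe sets moved by over 1.5 times, and with quantile normalization that of 2. No result comes from a test between groups, so no paired test was made. Without detection calls or background probes, signals near the floor cannot be told from none.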
